A study of Drosophila melanogaster with 4 samples.

Results

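The genes described here are 9 products of the insect fat body: apolpp, Lsp1beta, Lsp2, Fbp1, Ser7, FASN1, Fatp1, Lsd-1 and Adh. They were chosen by name, and every probe set that the array's annotation gives to one of them was taken, 10 of the 14010 probe sets on the array. Of these, 9 carried the listed symbol. The remaining one is annotated with the older symbol Fatp, a synonym of Fatp1. For Adh and Lsp1beta no probe set stood alone: both Adh probe sets are annotated jointly to Adh and its neighbour Adhr, and no probe set was named Lsp1beta. The other 7 genes were each named alone by at least 1 probe set, and 6 of them lay above the intensity filter. Fbp1 was the member below it.

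Total RNA from Drosophila melanogaster embryo cell culture was measured on 1-colour arrays, 4 in all. Every sample was a negative fraction, the cells left after fluorescence-activated sorting had removed a class of marked neurons. The Gad1-negative samples, a and b, were left by a sort in which dsRed1, a red fluorescent protein, was driven directly by a 2.1 kb promoter of the glutamic acid decarboxylase gene; no culture age is given for them. The Cha-negative samples, a and b, were left by a sort of cultures 3 to 5 days old with GFP in the cholinergic neurons. What drove the GFP, the strains, and whether a and b were separate cultures are not given in the sources used here, so the p-values cover the spread among the 4 arrays and perhaps no more than technical variation. The negative fractions hold whatever the gates left behind, and no fat body cells were sorted. In such mixed samples, fewer cells of a type and less RNA per cell cannot be told apart.

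The fat body is the insect counterpart of liver and adipose tissue. It makes the lipoprotein that carries lipid through the haemolymph, secretes storage proteins during larval growth, and keeps triglyceride in droplets coated by perilipins. In the embryo it arises from mesoderm under the GATA factor serpent (srp), which also acts in blood cells.

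The values are array intensities scaled by the authors to a common level on each array. Log2 was taken after a floor of 44.9, the 20th percentile over the 4 arrays, had been set. The median intensity of all probe sets ran from 181 to 213 in the Gad1-negative samples and from 219 to 248 in the Cha-negative samples. For the GAPDH control, 3' signal over 5' signal, a sign of RNA quality, was 23.9 and 38.04 in Gad1-negative a and b, against 144 or more for the Cha-negative sample a (its 5' signal lay under the floor) and 185 for b. The eIF-4a ratio did not overlap between the groups either, whereas the ratios of actin (82.1 and 106 in Gad1-negative, 59.4 and 124 in Cha-negative) and of 18S rRNA (18.0 and 18.8 in Gad1-negative, 59.2 and 17.3 in Cha-negative) overlapped. Thus 2 of the 4 controls moved with the groups, and their part in the differences below was not tested. Precision is limited throughout by having 4 arrays.

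No fat body gene passed limma's test between the fractions after adjustment over the 6991 genes tested. The members went both ways: FASN1, Lsd-1 and Lsp2 had a positive difference and Fatp1, Ser7 and apolpp a negative one, where a difference is the mean log2 intensity in Gad1-negative less that in Cha-negative, followed by its SE, the fit's standard error. Their median was -0.17, beside -0.04 over all genes tested, and it turned to 0.08 when each array was centred on its median, which moved the median of all genes tested by 0.25. It also turned without Cha-negative a (0.49) and without Gad1-negative a (0.08), and was -0.93 without Cha-negative b. Limma called 0 of the 6 members at an adjusted p under 0.05, where the share over all genes tested was 0%; it also called 0 members at an unadjusted p under 0.05, where 344 of all genes, 4.92%, lay under that level. The groups did not overlap in 2 of the 6 members, FASN1 and Fatp1, where 34.7% of all genes tested showed no overlap.

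**Figure D1:**
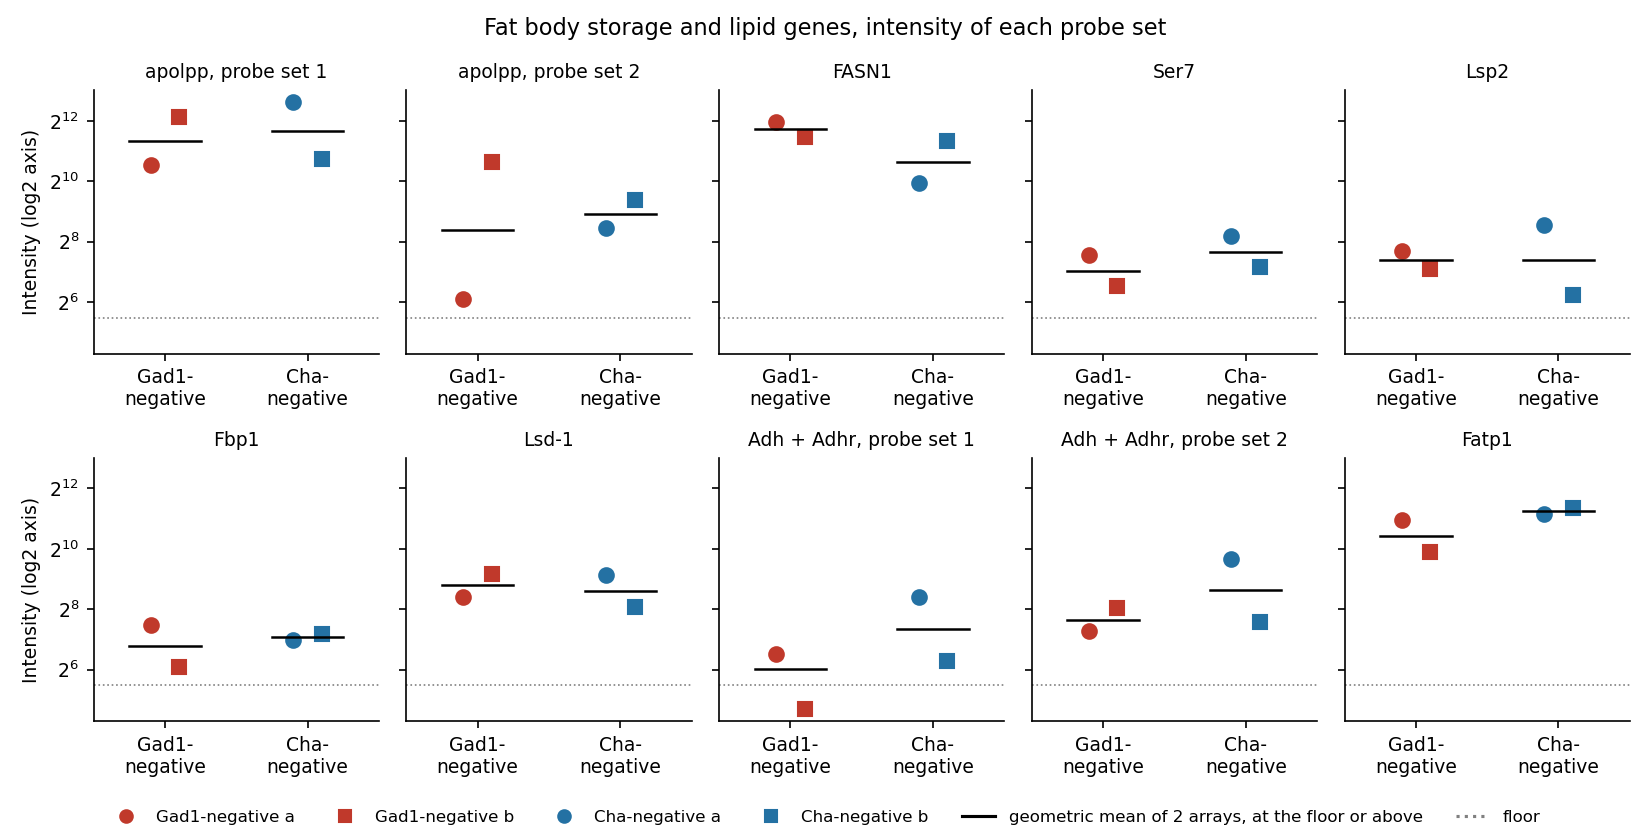
Intensity of each of the 10 probe sets in the 4 samples, on a log2 axis shared by all panels. Points are single arrays, bars are the geometric mean of the 2 arrays of a group with values raised to the floor (dotted, 44.9). FASN1 and Fatp1 are the panels in which the groups do not overlap.

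Apolpp, the precursor of apolipophorins I and II and so the backbone of the haemolymph lipoprotein, had Gad1-negative replicates far apart on both of its probe sets. The one with the higher mean read 1470.9 and 4420.8 in Gad1-negative a and b, against 6241.8 and 1688 in Cha-negative a and b. One sample of each group was high and the other low, so the groups overlapped. The difference was -0.35 ± 0.82 (SE, n = 2 per group), the 95% interval -2.25 to 1.55 and the limma adjusted p = 0.969. Replicates differed by 3.01-fold in Gad1-negative and 3.70-fold in Cha-negative, more than the group means did. The sign rested on single samples: the difference was 0.60 without Cha-negative a and 0.45 without Gad1-negative a, and -1.29 without Cha-negative b and -1.14 without Gad1-negative b.

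A further apolpp probe set gave a different order of samples. It read 69.4 and 1586.3 in Gad1-negative a and b, against 354 and 670 in Cha-negative a and b. Both probe sets placed Gad1-negative a lowest, whereas they disagreed on which Cha-negative sample was higher. The Gad1-negative replicates stood 22.9-fold apart on it, the widest replicate gap among the 10 probe sets. Tested among all probe sets above the filter, its difference was -0.55 ± 1.29 with a limma adjusted p = 0.966.

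The storage protein genes lay near the intensity filter, and their groups overlapped. Lsp2 encodes a hexamerin, a larval serum protein that the fat body secretes and later takes back. It read 207.8 and 137.8 in Gad1-negative a and b, against 376.6 and 75.1 in Cha-negative a and b. Both Gad1-negative values lay between the Cha-negative ones. The difference was 0.01 ± 0.96 (interval -2.21 to 2.23, limma adjusted p = 0.997). A change of up to 4.68-fold higher or to 0.216 of the Cha-negative level thus lay inside the interval. Cha-negative a and b were 5.01-fold apart, and the difference was 1.17 when Cha-negative a was left out and -1.15 when Cha-negative b was.

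Fbp1, which belongs to the same hexamerin family and acts as a receptor for larval serum proteins in the fat body, read 176.2 and 68.7 in Gad1-negative a and b, against 125.5 and 143.9 in Cha-negative a and b. Both Cha-negative values lay between the Gad1-negative ones. Its mean of 6.93 on the log2 scale lay just under the filter of 7.05, so it was not tested, and its groups differed by -0.29. Ser7, a serine protease gene, read 187.5 and 92.8 in Gad1-negative a and b, against 292 and 141.9 in Cha-negative a and b. The higher sample of each group was a, and the groups overlapped. The difference was -0.63 ± 0.83 (interval -2.56 to 1.30, limma adjusted p = 0.933). It was -0.12 without Gad1-negative b and -0.11 without Cha-negative a, and -1.13 without Gad1-negative a and -1.15 without Cha-negative b.

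Of 8 other fat body products listed beside the members, 6 were measured and 1 passed the filter. This was Yp2, a yolk protein gene of the adult female fat body and ovary. It read 162.2 and 62.4 in Gad1-negative a and b, against 468.3 and 96.1 in Cha-negative a and b (-1.08 ± 1.04, limma adjusted p = 0.929). Yp3, another yolk protein gene, read 106.8 and 62.8 in Gad1-negative a and b, against 103.2 and 405.4 in Cha-negative a and b. It was not tested. Fbp2, a larval fat body gene, read 28.7 and 15.5 in Gad1-negative a and b, both under the floor, against 266.1 and 36.3 in Cha-negative a and b. The highest value lay in Cha-negative a for Lsp2, Yp2 and Fbp2, in Cha-negative b for Yp3 and in Gad1-negative a for Fbp1.

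FASN1, the fatty acid synthase of the fat body, had the largest difference of the 6 members tested. It read 4028.7 and 2800.8 in Gad1-negative a and b, against 988.3 and 2561.1 in Cha-negative a and b. Both Gad1-negative samples lay above both Cha-negative samples, although Gad1-negative b and Cha-negative b were close. On the log2 scale the means were 11.71 ± 0.37 in Gad1-negative and 10.64 ± 0.97 in Cha-negative (SD, n = 2 each). The difference was 1.08 ± 0.64 (SE), a 2.11-fold change whose interval reached from 0.755-fold to 5.91-fold (limma adjusted p = 0.925). The gap between the Cha-negative replicates, 2.59-fold, was wider than the one between the groups. Over all genes tested, 82.0% had a smaller absolute difference, and 14.7% were higher in both Gad1-negative samples than in either Cha-negative sample. Without Cha-negative a the difference was 0.39, and without Cha-negative b it was 1.77.

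Fatp1 belongs to the family of fatty acid transport proteins, which take up fatty acids and activate them. It read 2001.9 and 957.7 in Gad1-negative a and b, against 2278.6 and 2616.2 in Cha-negative a and b. The Cha-negative samples were close together, 1.15-fold apart, and both lay above the Gad1-negative samples, which were 2.09-fold apart. The difference was -0.82 ± 0.58 (SE) (interval -2.17 to 0.53, limma adjusted p = 0.925). Over all genes tested, 20.1% were lower in both Gad1-negative samples than in either Cha-negative sample. Gad1-negative b carried most of the gap: without it the difference was -0.29, and without Gad1-negative a it was -1.35. FASN1 and Fatp1, which act on synthesis and on uptake of fatty acids, thus had differences of opposite sign, neither of which passed the test.

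Lsd-1, the perilipin that coats lipid droplets and governs access of lipases to them, read 337.4 and 577 in Gad1-negative a and b, against 566.9 and 268.1 in Cha-negative a and b. Its high samples were Gad1-negative b and Cha-negative a, as they were for the brighter apolpp probe set. The difference was 0.18 ± 0.64 (interval -1.30 to 1.65, limma adjusted p = 0.976). It was 0.72 without Cha-negative a and 0.57 without Gad1-negative a, and -0.36 without Cha-negative b and -0.21 without Gad1-negative b.

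**Figure D2:**
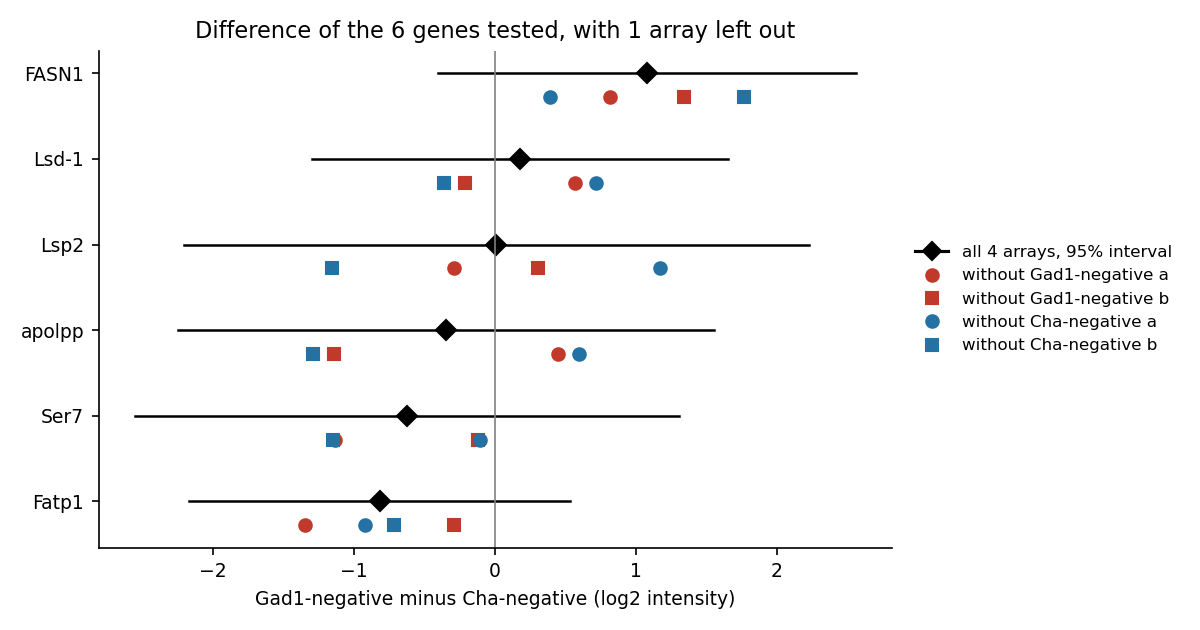
Difference of each of the 6 genes tested, Gad1-negative minus Cha-negative in log2 intensity. Diamonds with bars are the limma estimate and 95% interval from all 4 arrays, and the points under each give the estimate without 1 array. All 6 intervals cross 0, and the points of apolpp, Lsp2 and Lsd-1 lie on both sides of it.

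Adh, the alcohol dehydrogenase abundant in larval fat body and gut, shares its transcription unit with Adhr, and the annotation gives both probe sets to the pair. Their signal cannot be assigned to either gene. One probe set read 155.6 and 261 in Gad1-negative a and b, against 816.3 and 189.7 in Cha-negative a and b. The other read 92.6 in Gad1-negative a and 25.8, under the floor, in Gad1-negative b, against 338.5 and 77.4 in Cha-negative a and b. In both, Cha-negative a stood above the 3 other samples, and the Cha-negative replicates were 4.30-fold and 4.37-fold apart. The brighter of the pair differed by -0.97 ± 0.82 when all probe sets above the filter were tested (limma adjusted p = 0.914). The dimmer one lay under the filter.

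In all 10 probe sets, the gap between group means was smaller than the wider of the replicate gaps. Among all genes tested, the group difference exceeded both replicate gaps in 1510, 21.6%. The median replicate gap of the 6 members tested was 1.86-fold in Gad1-negative and 2.34-fold in Cha-negative, beside 1.65-fold and 1.53-fold over all genes tested. Cha-negative a was the highest of the 4 samples for Lsp2, Ser7, the brighter apolpp probe set and both Adh and Adhr probe sets, and the lowest for FASN1. The members thus did not follow a single order of samples.

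**Figure D3:**
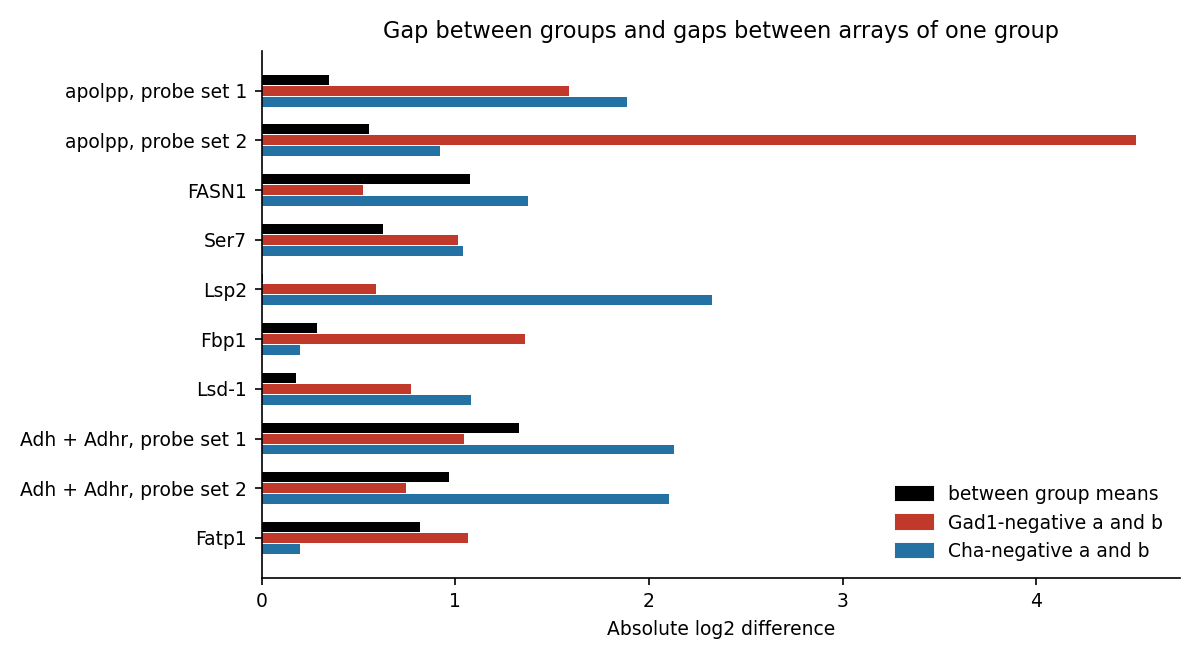
Absolute log2 differences for each of the 10 probe sets: between group means (black), between Gad1-negative a and b (red) and between Cha-negative a and b (blue), with values raised to the floor. In every row at least 1 coloured bar is longer than the black one, and the longest is the Gad1-negative bar of the second apolpp probe set.

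The mean pattern of the 6 members, each centred on its own log2 mean, was 0.03 and -0.11 in Gad1-negative a and b, against 0.44 and -0.35 in Cha-negative a and b. The genes outside the list with the most similar pattern were glo (Pearson's r = 0.9996), Cals (r = 0.9995) and mamo (r = 0.9990). They were sought among 4982 genes whose highest and lowest samples were at least 2-fold apart. With so few samples such values are common: 81 genes reached 0.95. Glo read 4063.3 and 3164.2 in Gad1-negative a and b, against 7653.4 and 2250.1 in Cha-negative a and b.

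Around the members, 67 further genes of lipid, storage, alcohol and fat body function were listed in 8 groups, of which 55 were measured and 44 tested. Limma called 0 of the 44 at an adjusted p under 0.05, and 2, fabp and foxo, had an unadjusted p under 0.05. Over all genes tested, 4.92% lay under that unadjusted level. Their median difference was 0.03, with 23 positive and 21 negative. The groups did not overlap in 7 genes higher in Gad1-negative and 6 lower, 29.5% in all, beside 34.7% of all genes tested.

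In lipoprotein assembly and transfer, 5 of 6 genes were tested, 2 with a positive and 3 with a negative difference. Apoltp, the lipid transfer particle that loads lipid onto the apolpp lipoprotein, read 2378.9 and 2210.2 in Gad1-negative a and b, against 1851.3 and 966.4 in Cha-negative a and b (0.78 ± 0.57, limma adjusted p = 0.925). The groups did not overlap, as in 34.7% of all genes tested, whereas those of apolpp did. Npc2a, a sterol-binding protein, read 399.9 and 1440.5 in Gad1-negative a and b, against 370 and 219.3 in Cha-negative a and b (1.41 ± 0.73). Npc1a, its membrane partner in sterol transport, read 1216.5 and 559.9 in Gad1-negative a and b, against 1653.9 and 943.6 in Cha-negative a and b (-0.60 ± 0.62).

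Of 6 droplet and lipolysis genes tested, 2 had a positive and 4 a negative difference. Mdy, a diacylglycerol acyltransferase that makes triglyceride, read 705.1 and 409.9 in Gad1-negative a and b, against 1223.2 and 916.4 in Cha-negative a and b (-0.98 ± 0.56, limma adjusted p = 0.925). Bmm, the brummer lipase that breaks triglyceride down, read 1705.1 and 1157.9 in Gad1-negative a and b, against 2308.2 and 1709.1 in Cha-negative a and b (-0.50 ± 0.54). In these 2 of the 6 genes both Gad1-negative samples lay below both Cha-negative ones, a pattern that 20.1% of all genes tested showed. Jabba, a droplet protein that holds histones, read 470.3 and 347.4 in Gad1-negative a and b, against 348.9 and 85.2 in Cha-negative a and b (1.23 ± 0.80).

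The fatty acid synthesis genes around FASN1 had a median difference of 0.37 over the 8 tested, 5 positive and 3 negative, and 3 were higher in both Gad1-negative samples than in either Cha-negative sample, a pattern that 14.7% of all genes tested showed. SREBP, the transcription factor that drives lipogenic genes, read 1775.1 and 1167.7 in Gad1-negative a and b, against 772.7 and 850.4 in Cha-negative a and b (0.83 ± 0.53, limma adjusted p = 0.925). Men, the malic enzyme that supplies NADPH, read 2833.8 and 3961.1 in Gad1-negative a and b, against 1525.9 and 2476.4 in Cha-negative a and b (0.79 ± 0.56). Desat1, the fatty acid desaturase, read 2513.1 and 1681.8 in Gad1-negative a and b, against 1344.8 and 1490.7 in Cha-negative a and b (0.54 ± 0.53). For ACC, the acetyl-CoA carboxylase of the same pathway, the groups overlapped (0.27 ± 0.52). It read 1287.8 and 909.4 in Gad1-negative a and b, against 867 and 925.6 in Cha-negative a and b. The 3 synthesis genes with a negative difference were ATPCL (-0.37 ± 0.64), AcCoAS (-0.29 ± 0.68) and bigmax (-0.12 ± 0.64), all with overlapping groups.

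**Figure D4:**
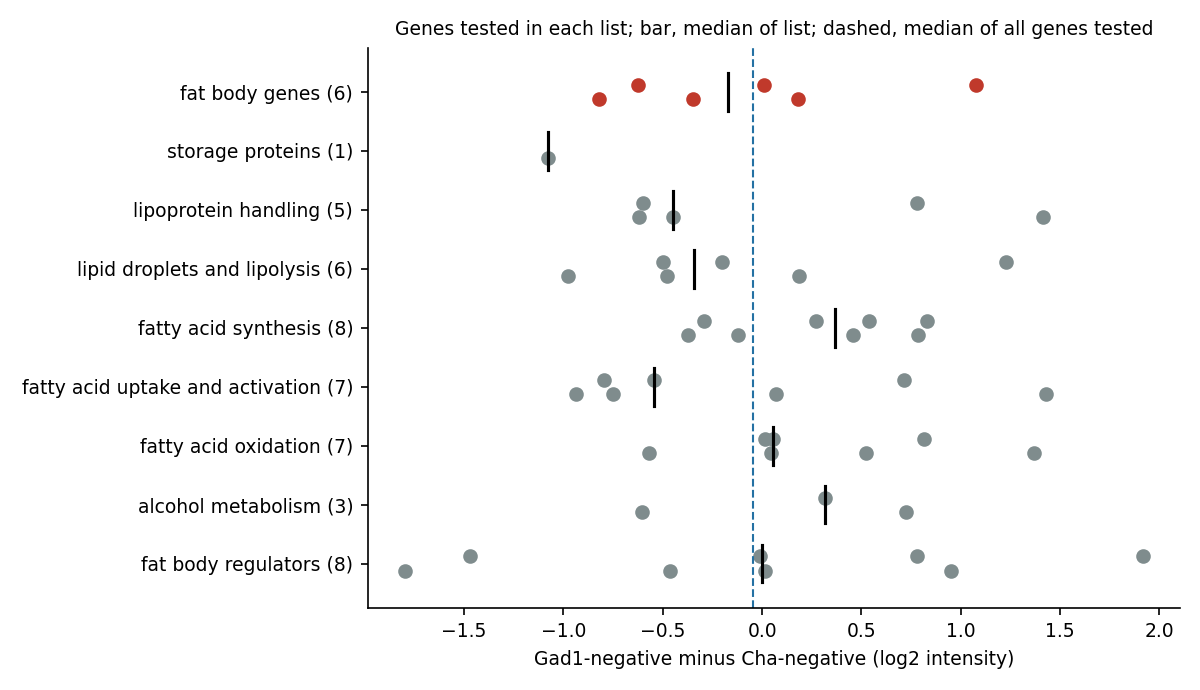
Difference of each gene tested, Gad1-negative minus Cha-negative in log2 intensity, for the 6 fat body genes (red) and the 8 related lists (grey), with the number of genes tested in brackets. Bars are list medians and the dashed line is the median of all genes tested, -0.04; every list with over 1 gene has points on both sides of the line.

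Among 7 genes of fatty acid uptake and activation, which include the Fatp1 relatives Fatp2 and Fatp3, the median difference was -0.55. Fabp, the cytoplasmic fatty acid binding protein, read 7138.5 and 6910.1 in Gad1-negative a and b, against 2075.7 and 3267 in Cha-negative a and b. The Gad1-negative samples were close together and the groups did not overlap, as in 34.7% of all genes tested. Its difference was 1.43 ± 0.57, with an interval from 0.12 to 2.75, an unadjusted p = 0.0365 and a limma adjusted p = 0.925. Fatp2 read 335.9 and 133 in Gad1-negative a and b, against 602.6 and 272.3 in Cha-negative a and b (-0.94 ± 0.74), a negative difference like that of Fatp1 but with overlapping groups. Acsl, a long-chain acyl-CoA synthetase, read 896.5 and 456.8 in Gad1-negative a and b, against 289.6 and 526.5 in Cha-negative a and b (0.71 ± 0.62).

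The 7 fatty acid oxidation genes tested had a median of 0.05. Mtpbeta and Echs1, of mitochondrial beta-oxidation, differed by 1.37 ± 0.96 and 0.82 ± 0.73, and the peroxisomal oxidase Acox57D-p by -0.57 ± 0.58. The 3 alcohol metabolism genes tested had a median of 0.32. Fdh, the formaldehyde dehydrogenase, read 1638.7 and 4110.4 in Gad1-negative a and b, against 1423.4 and 1728 in Cha-negative a and b (0.73 ± 0.62). Sodh1 and Sodh2, sorbitol dehydrogenases, differed by -0.60 ± 0.64 and 0.32 ± 0.55.

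The regulators of fat body had a median of 0.00 over the 8 tested, 4 positive and 4 negative. The fat body and blood cell factor srp read 647.1 and 205.6 in Gad1-negative a and b, against 352.4 and 101.3 in Cha-negative a and b (0.95 ± 0.87). In each group sample a was the higher one, as for Lsp2 and Ser7. Foxo, a transcription factor restrained by insulin signalling, read 115.5 and 124.4 in Gad1-negative a and b, against 473.6 and 367.1 in Cha-negative a and b (-1.80 ± 0.65, unadjusted p = 0.0256, limma adjusted p = 0.925). Usp, the partner of the ecdysone receptor, was high in Gad1-negative a alone, at 3860.2, against 271 in Gad1-negative b and 203.1 and 361.4 in Cha-negative a and b. The ecdysone response gene br was high in Cha-negative a alone, at 959.7, beside 87.3 and 128 in Gad1-negative a and b and 89.1 in Cha-negative b.

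The 6 serine proteases tested as kin of Ser7 had a median of 0.31. Snk, a protease of embryonic patterning, read 466.6 and 522.8 in Gad1-negative a and b, against 1030.5 and 716.9 in Cha-negative a and b (-0.80 ± 0.53). Sp7, a protease of melanisation, differed by 0.89 ± 0.72. Grass, of the Toll pathway, differed by 1.45 ± 1.35 and stood high in Gad1-negative b alone, at 974.4.

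Markers of other cell types were summed on the same arrays. The summed intensity of 5 measured muscle markers of 8 was 5196 and 9139 in Gad1-negative a and b, against 3043 and 1645 in Cha-negative a and b. Most of it was 1 gene, the myosin light chain Mlc2, at 4097.6 and 7432.4 in Gad1-negative a and b, against 2043.9 and 1115.7 in Cha-negative a and b. Of the 5, 4 had a positive difference and up, a troponin T gene, a negative one (-0.27 ± 0.70). Prm, among the 4, read 377.6 and 797.2 in Gad1-negative a and b, against 73.3 and 52.2 in Cha-negative a and b. Its difference was 3.15 ± 0.76, and its limma adjusted p = 0.781 was the smallest of all genes tested. The sum of 8 gut markers of 9 was 5736 and 2989 in Gad1-negative a and b, against 8245 and 9401 in Cha-negative a and b. The brightest gut marker was LysB, whose groups overlapped. It read 4150.2 and 1454.7 in Gad1-negative a and b, against 5037 and 4014.2 in Cha-negative a and b. All 6 gut markers tested had a negative difference, as had 3654 of the 6991 genes tested. Neither the muscle sum nor the gut sum overlapped between the groups. Among single genes tested, 34.7% showed no overlap. For 11 haemocyte markers of 12 the sum was 7471 and 1892 in Gad1-negative a and b, against 4099 and 3619 in Cha-negative a and b. For 6 neuron markers of 8 it was 783 and 2279 in Gad1-negative a and b, against 1475 and 1749 in Cha-negative a and b. Both of these overlapped. Values were raised to the floor before summing. No measured marker of the 4 lists lay at the floor in all 4 samples, but alphaTry cleared it only in Cha-negative b, at 45.5. Some measured markers lay under the intensity filter and were not tested. Limma called 0 of the 24 tested at an adjusted p under 0.05. At an unadjusted p under 0.05 there were 3, where the share over all genes tested was 4.92%. The part of these cell types in the fat body gene values was not tested.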

How the data were processed

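Transcript levels of 4 samples were taken from the authors' deposited table of array intensity (linear, 1 value for each probe set). The trimmed means of its columns, with 2% left out at each end, were equal at 500.1, which shows that a common scale had been set on each array. The software behind it is not given in the sources used here. Of 14010 probe sets, 44 were controls, 12443 named a single gene, 327 several and 1196 none. Symbols were updated through Entrez identifiers, or synonyms where the identifier had no entry, which gave 10826 genes. The brightest probe set stood for each gene. Values under the 20th percentile (44.9) were raised to it and taken to log2, and 6991 genes were tested, those whose mean reached 7.05, the 40th percentile over probe sets. The test was limma 3.58.1 in R 4.3.3, two-sided, from lmFit and trended eBayes on 2 residual degrees of freedom. Its p-values were adjusted by Benjamini-Hochberg. Tables were made with pandas 2.3.3 and numpy 2.4.6 in Python 3.11.15 and figures with matplotlib 3.10.9. On simulated data, only the fit's mean recovery of an added difference was held to a limit. Its rates of calling were computed there but not held to one.

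The members, gene lists and tests were chosen with earlier results of these data known. Named are all members and the 3 genes most like the members' mean pattern. Each list outside the cell type markers gave up to 3 genes, those with the smallest unadjusted p (the brightest where fewer were tested). Of the genes so picked from the marker lists, only Mlc2 and Prm are named. ACC, ATPCL, AcCoAS, bigmax, Fatp3, srp, up, LysB and alphaTry were named outside this rule, after values were seen. Listed genes with no single-gene probe set were left out. Alternatives were quantile normalization, median centring, floors at the 10th and 30th percentiles, an offset of 50 instead of a floor, no filter or one at the 60th percentile, averaging all probe sets of a gene, untrended eBayes, the replicate letter as a block, and leaving out each sample. A test of all probe sets was added after the data were seen. Coordinates are left out because the probes' genome build is not stated.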

Additional observations from a re-analysis of the deposited data

How the results depend on the processing

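Limma called 0 genes at an adjusted p under 0.05 in all 15 alternatives, with 212 to 716 genes at an unadjusted p under 0.05. Of 88 member differences under these alternatives, 80 kept their sign and 8 changed it, and none passed adjustment (smallest adjusted p 0.633). The 8 were in apolpp, Lsp2 and Lsd-1. The filter, eBayes, replicate block and all-probe-set alternatives leave a gene's difference unchanged by construction, so they could not change a sign. The same holds for averaging where a gene has 1 probe set. The 80 kept signs are therefore no measure of robustness. With 1 sample left out, apolpp ran from -1.29 to 0.60, Lsp2 from -1.15 to 1.17 and Lsd-1 from -0.36 to 0.72; a lone sample was then assumed to vary like the other group. Lsp2 was also -0.0412 with the floor at the 30th percentile and -0.0703 with the offset. The members' median of -0.17 became -0.0552 after quantile normalization, 0.0758 after median centring and -0.29 with no filter, which adds Fbp1. It ran from -0.93 without Cha-negative b to 0.49 without Cha-negative a. Median centring moved the median of all genes tested by 0.25. It shifts every gene's difference by the same amount, so the members necessarily stood at -0.13 relative to that median with and without it. Causes of these shifts were not tested. The letters a and b gave no sure pairing: deviations from the group means of same-letter samples had r = 0.25 across genes, on 2 pairs. With the letter as a replicate block there were 0 calls and 603 genes at an unadjusted p under 0.05. The members' median was again -0.17, which was fixed in advance because each letter occurs in both groups.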
